A study of Mus musculus with 50 samples.

Results

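Pax7 and Pax3 were followed at every CpG that the deposited table placed in the promoter or the body of either gene. These were 122 of 205304 CpGs, 88 of Pax7 and 34 of Pax3, and they fell into 15 of 51038 clusters, 10 of Pax7 and 5 of Pax3. A cluster is a run of CpGs with gaps of at most 100 bp, as the authors assigned them. Clusters are numbered here in the direction of transcription, and a methylation level is the percentage of methylated calls among all calls. The measurements were made by reduced representation bisulfite sequencing (RRBS) of the soleus, a slow postural muscle, from 44 mice. All mice were 12 weeks old, of both sexes, on a C57BL/6 background and homozygous for the floxed Dnmt3a allele (Dnmt3a flox/flox), in which loxP sites flank exon 19. The 21 WT mice had no Cre, and the 23 mD3AKO mice carried an mCK-Cre transgene, in which the promoter of muscle creatine kinase drives Cre late in muscle differentiation. Satellite cells and non-muscle cells are presumed to keep Dnmt3a, which these data do not measure. The WT mice were taken at rest (n = 5) or 10 (n = 5), 30 (n = 5) or 60 min (n = 6) after 30 min of treadmill running, and the mD3AKO mice at rest (n = 5) or 10 (n = 5), 30 (n = 7) or 60 min (n = 6) after the same run. Resting mice spent the same time in a sham treadmill.

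The samples held 12.8 to 41.3 megacalls (methylated plus unmethylated calls over all CpGs), on average 20.5 ± 5.75 (SD, n = 21) for WT and 23.4 ± 6.97 (SD, n = 23) for mD3AKO. The counts of methylated and unmethylated calls do not show the deletion of Dnmt3a itself, and RRBS reads no RNA. The labels were checked at the other clusters called lower in mD3AKO by the quasi-binomial model, fitted each time without the sample under check. On a scale on which 0 is the WT mean and 1 the mD3AKO mean, WT samples lay between -0.15 and 0.51 and mD3AKO samples between 0.59 and 1.23, with no overlap. Promoter CpGs were covered for few of the cell type markers. In WT the muscle fibre genes Actn2, Atp2a2 and Acta1 had 1.84% ± 1.61 (SD, n = 21), 0.53% ± 0.70 (SD, n = 21) and 11.5% ± 11.8 (SD, n = 21), and the fibroblast gene Pdgfra had 0.85% ± 2.33 (SD, n = 21). Acta1 and Pdgfra rest on 1 CpG each, and a low promoter level did not set fibre genes apart from that of the fibroblast gene. Each sample is DNA from a whole muscle, in which a change of methylation in 1 cell type and a change in the share of that cell type cannot be told apart.

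Pax7 and Pax3 are paired-box transcription factors with a paired domain and a homeodomain, and both act upstream of the myogenic factors in muscle progenitors. In the adult, Pax7 marks satellite cells, the stem cells of skeletal muscle, whereas Pax3 is used mainly by embryonic progenitors and by satellite cells of some muscles. Both are silent in mature fibres, and both genes carry several CpG islands around and downstream of their start. DNMT3A is a de novo methyltransferase that adds methyl groups to unmethylated CpGs. By the island rule used here (200 bp windows, at least 50% GC, observed to expected CpG of at least 0.6), 76 of the 88 CpGs of Pax7 and 27 of the 34 of Pax3 lay in islands.

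The stretches on which the results turn are given here on the coding strand, which is the minus strand for both genes (GRCm38), from the first to the last measured CpG, with measured CpGs in capitals. The first 4 are the Pax7 clusters or the part of a cluster where mD3AKO muscle was lower. They are followed by a stretch of coding exon 2 of Pax7, the pair of CpGs upstream of the Pax7 start, and the Pax3 cluster with the lowest p-value.
Pax7 cluster 1, upstream, chr4:139836261-139836465: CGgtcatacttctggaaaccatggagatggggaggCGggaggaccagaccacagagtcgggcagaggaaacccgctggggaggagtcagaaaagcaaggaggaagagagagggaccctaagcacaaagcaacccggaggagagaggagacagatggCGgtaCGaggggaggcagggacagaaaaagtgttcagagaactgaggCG
Pax7 cluster 5, intron 4, chr4:139828380-139828539: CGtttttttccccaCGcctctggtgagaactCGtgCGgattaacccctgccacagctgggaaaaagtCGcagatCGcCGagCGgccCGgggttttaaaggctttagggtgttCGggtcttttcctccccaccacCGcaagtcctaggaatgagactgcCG
Pax7 cluster 6, 1 of its MspI fragments, intron 4, chr4:139824142-139824209: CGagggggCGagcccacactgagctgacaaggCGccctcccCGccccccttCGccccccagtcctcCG
Pax7 cluster 10, intron 7, chr4:139757110-139757301: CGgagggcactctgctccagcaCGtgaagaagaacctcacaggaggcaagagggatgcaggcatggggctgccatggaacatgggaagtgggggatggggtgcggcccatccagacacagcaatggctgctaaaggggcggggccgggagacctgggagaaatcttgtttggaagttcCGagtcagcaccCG
Pax7 cluster 3, coding exon 2, chr4:139830292-139830350: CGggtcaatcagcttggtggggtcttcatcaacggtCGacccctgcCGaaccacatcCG
Pax7 cluster 2, the upstream pair, chr4:139834095-139834120: CGgggatgtcaccctactctgttcCG
Pax3 cluster 5, intron 4, chr1:78171325-78171398: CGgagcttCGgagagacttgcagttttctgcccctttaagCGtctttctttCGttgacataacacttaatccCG

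Methylation of Pax7 was lower in mD3AKO than in WT muscle at 4 of its 10 clusters, and none of the 5 clusters of Pax3 passed the test (edgeR quasi-likelihood test, adjusted p under 0.05 over all clusters). Over all 51038 clusters 1.09% were called, nearly all lower in mD3AKO. The likelihood ratio test, the quasi-binomial model and limma each called 4 Pax7 clusters and no Pax3 cluster, where they called 2.77, 2.54 and 1.75% of all clusters. The mean level was lower in mD3AKO at all 10 Pax7 clusters and at 3 of the 5 Pax3 clusters, against 62.4% of all clusters. By the fitted log2 odds ratio it was lower at all 10 Pax7 clusters and, in Pax3, only at cluster 2. The called share depended on the starting level. It was 3.57% of the 4479 clusters with a WT level of 5 to 20%, 2.11% of those from 20 to 40%, and 0.667% of those below 5%. Of the 29248 clusters from 40% up, 0.708% were called. Pax7 clusters 2 and 7 and Pax3 clusters 1 and 3 had WT levels below 5%, and Pax3 cluster 5 was above 40%. The 4 called Pax7 clusters had WT levels of 6.37 to 29.1%.

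**Figure D1:**
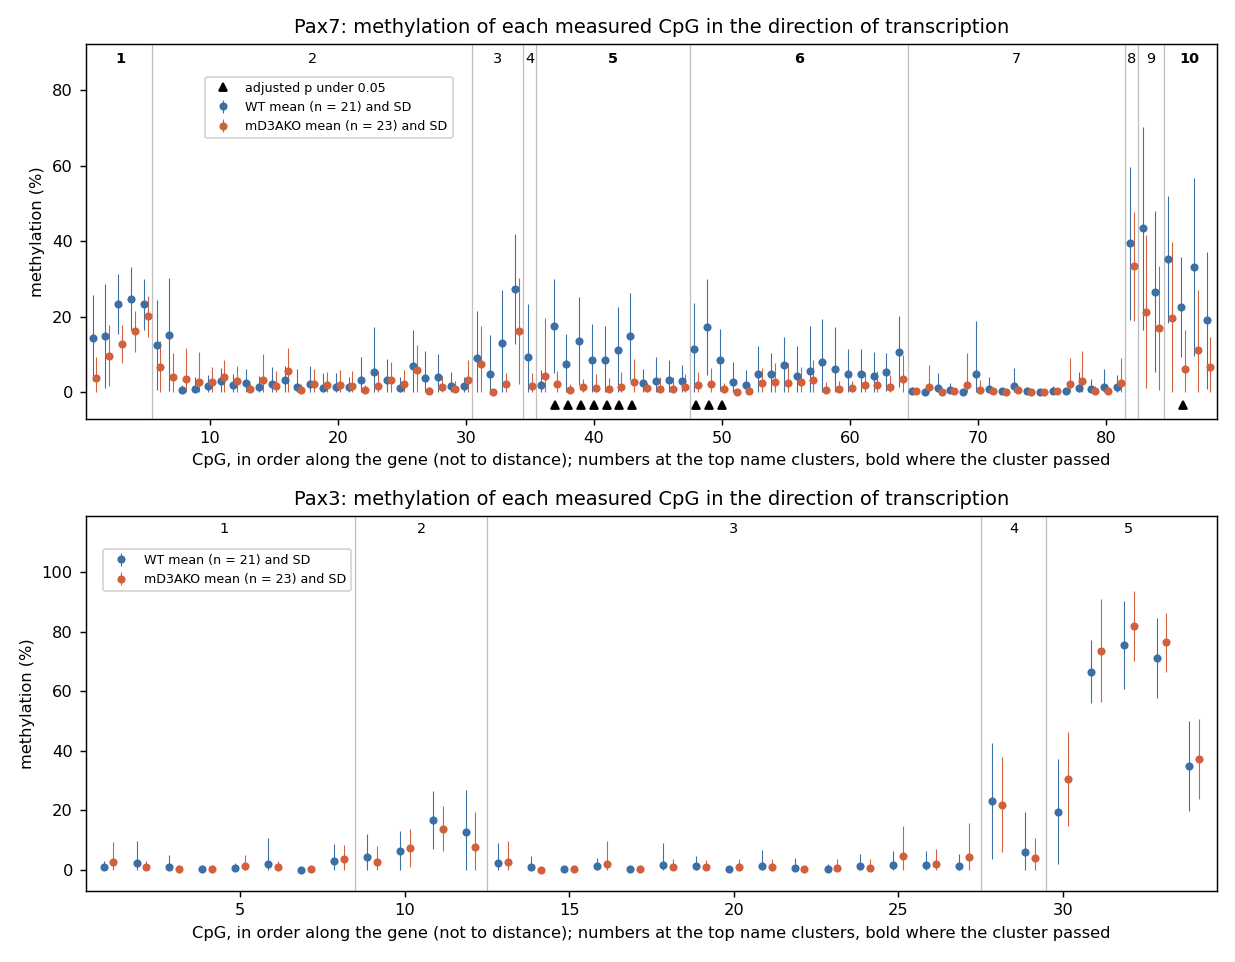
Methylation level (%) of each measured CpG of Pax7 (upper panel) and Pax3 (lower panel), placed in order along the gene and not to distance; points are genotype means, bars 1 SD cut at 0, vertical lines separate clusters, and triangles mark single CpGs with an adjusted p under 0.05. In Pax7 the WT points stand above the mD3AKO points at every CpG of clusters 1, 3, 6, 9 and 10 and at 11 of the 12 CpGs of cluster 5, whereas in clusters 2 and 7 both lie close to 0 at most CpGs; in Pax3 the genotypes overlap, and in cluster 5 the mD3AKO points lie above WT.

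**Figure D2:**
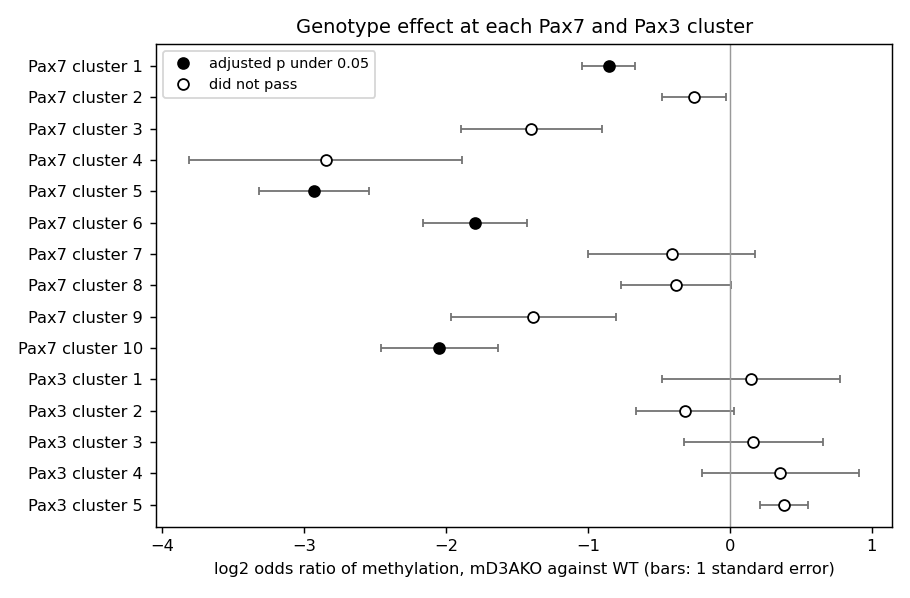
Genotype effect at the 15 clusters as the log2 odds ratio of methylation, mD3AKO against WT (horizontal axis, bars 1 standard error). Filled points passed the test; they are Pax7 clusters 1, 5, 6 and 10, at -0.85, -2.93, -1.80 and -2.05.

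Pax7 cluster 5, with 12 CpGs, had the lowest p-value of the 15 clusters. It lies in intron 4, in a CpG island of 895 bp, and its nearest CpG is 37 bases past the end of exon 4. Its level in WT mice was 1.94% in the lowest sample, 7.79% at the median and 18.5% in the highest. In mD3AKO mice the lowest was 0%, the median 0.98% and the highest 4.81%. All 23 mD3AKO samples were below the WT mean, 16 of them below every WT sample, and 15 of the 21 WT samples were above every mD3AKO sample. The means were 8.20% ± 4.76 (SD, n = 21) and 1.36% ± 1.20 (SD, n = 23), a log2 odds ratio of -2.93 with an SE of 0.39 (edgeR adjusted p = 1e-05). The calls behind each sample's value numbered 334 to 2393. In all, 0.794% of clusters had every mD3AKO sample below the WT mean.

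The difference was uneven within cluster 5. Of its 12 CpGs, 11 had a lower mean in mD3AKO and 10 had an unadjusted p under 0.05 in edgeR, all lower. Over the whole series 13106 of 205304 CpGs had such a p, in either direction. When adjusted over all CpGs 7 of the 12 passed, where 0.287% of all were called. The CpG with the lowest p, at position 139828524, had 17.5% ± 12.4 (SD, n = 21) for WT against 2.17% ± 3.43 (SD, n = 23) in mD3AKO (edgeR adjusted p = 9.85e-05). The MspI fragment nearer exon 4, with 9 CpGs, fell from 9.56% ± 5.95 (SD, n = 21) to 1.51% ± 1.54 (SD, n = 23), and the neighbouring fragment, with 3 CpGs, had 3.02% ± 3.59 (SD, n = 21) and 1.06% ± 1.66 (SD, n = 23). The only CpG with a higher mean in mD3AKO, at 139828538, had 1.89% ± 3.95 (SD, n = 21) for WT against 4.18% ± 15.5 (SD, n = 23), with 20 of 23 mD3AKO samples under the mean of WT. MspI is the enzyme that cuts the DNA in RRBS, and CpGs of 1 fragment are read on the same molecules.

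Pax7 cluster 6, with 17 CpGs, lies 9320 to 9847 bp downstream of the start in another island of intron 4, of 938 bp. WT samples ranged from 1.72 to 17.1% with a median of 6.48%, and mD3AKO samples from 0 to 4.97% with a median of 2.11%. The means were 6.37% ± 3.49 (SD, n = 21) and 2.03% ± 1.35 (SD, n = 23), with all 23 mD3AKO samples under the mean of WT (log2 odds ratio -1.80, SE 0.37, edgeR adjusted p = 0.00446). All 17 CpGs had a lower mean in mD3AKO and 3 passed on their own, next to each other on the fragment printed above, which fell from 7.13% ± 5.39 (SD, n = 21) to 1.54% ± 1.95 (SD, n = 23). At the strongest of them, position 139824176, all 23 mD3AKO samples were below the WT mean of 8.55% ± 8.27 (SD, n = 21), and the mD3AKO mean was 0.82% ± 1.62 (SD, n = 23). The call of the cluster was lost when only CpGs with 20 or more reads in every sample were kept, which left 3 of its 17 CpGs (adjusted p = 0.332).

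Another measured island of intron 4, Pax7 cluster 7 with 17 CpGs in an island of 1171 bp, was close to unmethylated in both genotypes. It had 0.85% ± 0.97 (SD, n = 21) for WT against 0.74% ± 0.90 (SD, n = 23) in mD3AKO (edgeR adjusted p = 0.939). Its lowest sample was at 0% in both genotypes, its highest was 3.30% in WT and 3.44% in mD3AKO, and none of its CpGs had an unadjusted p under 0.05. At most of these CpGs no SE could be estimated in edgeR, so their p could not show a difference. The 3 islands lie within the first 12027 bp of the transcribed region and differed in their WT level, which was 8.20% in cluster 5, 6.37% in cluster 6 and 0.85% in cluster 7.

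Farther into the gene, Pax7 cluster 10 has 4 CpGs in intron 7, 76228 to 76418 bp downstream of the start and outside any island. WT samples ranged from 7.69 to 46.7% with a median of 31.3%, and mD3AKO samples from 0 to 31.3% with a median of 8.94%. The groups overlapped, with 22 of 23 mD3AKO samples under the mean of WT and 11 of 21 WT samples above every mD3AKO sample. The means, 29.1% ± 11.1 (SD, n = 21) and 10.9% ± 7.87 (SD, n = 23), were 18.2 percentage points apart, the widest gap of the 15 clusters (log2 odds ratio -2.05, SE 0.41, edgeR adjusted p = 0.00398). All 4 CpGs had an unadjusted p under 0.05, and only 1 of them, at position 139757278, passed on its own (edgeR adjusted p = 0.0248). Cluster gaps of 50 bp split the 4 CpGs into pairs, and 1 pair did not pass (edgeR adjusted p = 0.205). The other pair was not looked up, so whether the call was lost there is not shown.

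Upstream, Pax7 cluster 1 has 5 CpGs at positions -2936 to -2733 from the start, within the promoter as the authors defined it. The reverse and sequencing primers with which the study assayed the Pax7 promoter by pyrosequencing match this stretch of the minus strand, at 139836263 to 139836291 and 139836439 to 139836460. No exact match of the forward primer was found. That assay was made in EDL and quadriceps muscle of a separate cohort of older males, not in these samples. WT samples ranged from 11.0 to 30.0% with a median of 20.1%, and mD3AKO samples from 6.31 to 21.2% with a median of 12.8%. The means were 20.6% ± 5.44 (SD, n = 21) and 12.7% ± 3.84 (SD, n = 23), with 22 of 23 mD3AKO samples under the mean of WT (log2 odds ratio -0.85, SE 0.19, edgeR adjusted p = 0.00972). No single CpG of the cluster passed, and their mean differences ran from -10.6 to -3.11 percentage points. The call was lost with CpGs of 20 or more reads, which left 3 of 5 (adjusted p = 0.13). With gaps of 50 bp, the piece with most of the measured CpGs did not pass (edgeR adjusted p = 0.23).

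**Figure D3:**
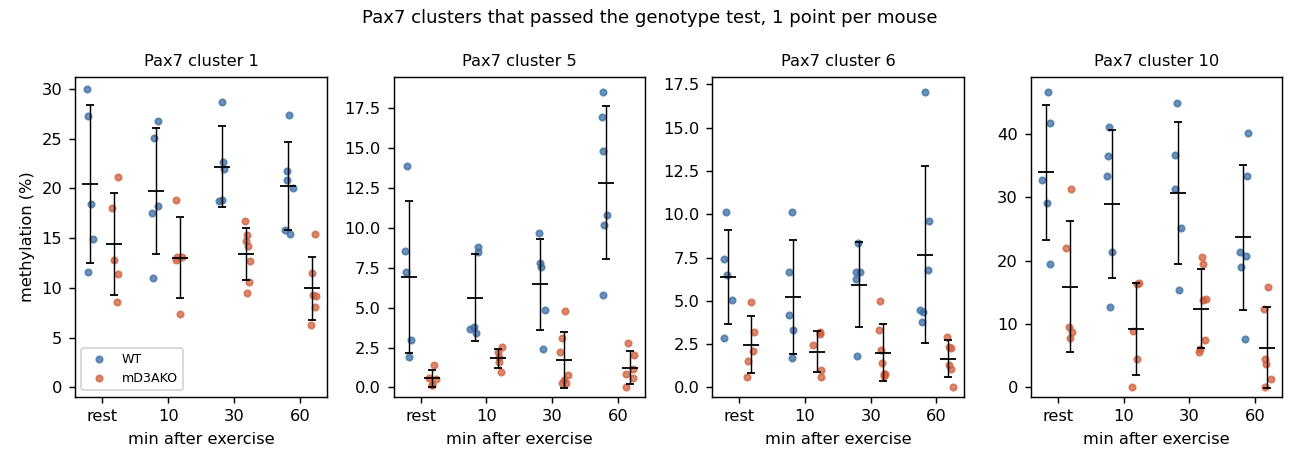
Methylation level (%) of Pax7 clusters 1, 5, 6 and 10 in each mouse at rest and 10, 30 and 60 min after exercise, WT and mD3AKO side by side; horizontal marks and bars are the mean and 1 SD of the group. In cluster 5 the mD3AKO samples reach at most 4.81%, and the mean of mD3AKO lies below that of WT at every time in all 4 clusters.

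At the transcription start itself the genotypes were close. Pax7 cluster 2 spans positions -591 to 1855 from the start, with 25 CpGs, 23 of them in an island. It had 2.93% ± 0.84 (SD, n = 21) for WT against 2.60% ± 1.25 (SD, n = 23) in mD3AKO (log2 odds ratio -0.25, SE 0.23, edgeR adjusted p = 0.848). WT samples lay between 1.03 and 4.23% and mD3AKO samples between 0.79 and 5.68%. Within it, 12 CpGs had a lower and 13 a higher mean in mD3AKO. The pair of CpGs upstream of the start stood above the rest in WT. Position 139834095 had 15.2% ± 15.0 (SD, n = 21) for WT against 4.03% ± 6.21 (SD, n = 23) in mD3AKO (edgeR adjusted p = 0.352), and position 139834119 had 12.5% ± 11.9 (SD, n = 21) and 6.71% ± 6.79 (SD, n = 23) (edgeR adjusted p = 0.881). Cluster 5 exceeded cluster 2 by 5.27 percentage points in WT and was 1.23 percentage points below it in mD3AKO. Cluster 5 was taken because its p was lowest, so this difference of -6.50 percentage points is given with no test.

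The other 4 Pax7 clusters did not pass. Cluster 3, in coding exon 2, had 14.5% ± 11.2 (SD, n = 21) for WT against 6.46% ± 4.73 (SD, n = 23) in mD3AKO, with all 23 mD3AKO samples under the mean of WT (edgeR adjusted p = 0.229). The SD of WT there was near the size of the mean, with samples from 1.20 to 41.1%. Clusters 4, 8 and 9 rest on 1, 1 and 2 CpGs of introns 3, 4 and 4. Their levels were 9.20% ± 14.3 (SD, n = 21) and 1.61% ± 3.44 (SD, n = 23), 39.4% ± 20.2 (SD, n = 21) and 33.3% ± 14.4 (SD, n = 23), and 35.0% ± 18.7 (SD, n = 21) and 19.2% ± 16.3 (SD, n = 23), with adjusted p of 0.19, 0.882 and 0.384 in edgeR.

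Summed over each gene, the body of Pax7 with 81 CpGs had 6.07% ± 1.51 (SD, n = 21) for WT against 3.01% ± 0.83 (SD, n = 23) in mD3AKO, with all 23 mD3AKO samples under the mean of WT (log2 odds ratio -1.05, SE 0.12, edgeR adjusted p = 2.79e-07). Of 12391 gene bodies 1.42% were called. The promoter of Pax7, 9 CpGs drawn from clusters 1 and 2, had 17.3% ± 5.48 (SD, n = 21) and 10.5% ± 3.08 (SD, n = 23) and did not pass (log2 odds ratio -0.82, SE 0.24, edgeR adjusted p = 0.0987, against 0.789% of 9761 promoters called). It passed with the edgeR likelihood ratio test (adjusted p = 0.000379), the quasi-binomial model (adjusted p = 0.000669) and limma (adjusted p = 0.041).

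Pax3 has the same arrangement of an unmethylated start and islands in its first introns, and none of its 34 CpGs had an unadjusted p under 0.05 in edgeR, nor did any pass with the quasi-binomial model or limma. At many of the CpGs of low level, in Pax3 clusters 1 and 3, no SE could be estimated in edgeR. The edgeR p of those CpGs could not show a difference. The body of Pax3, with 31 CpGs, had 16.3% ± 4.62 (SD, n = 21) for WT against 17.0% ± 6.17 (SD, n = 23) in mD3AKO (log2 odds ratio 0.09, SE 0.18, edgeR adjusted p = 0.989). The genotype difference was set against that of Pax7 within each sample. The log2 odds of the Pax7 body minus those of the Pax3 body were -1.58 in WT and -2.68 in mD3AKO, a difference of -1.10 (two-sided permutation test within time and sex, p = 2e-05). In percentage points the difference was -3.71 (p = 0.0182 in the same permutation test). This test was added after the values were seen, and the bodies start from different levels.

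Pax3 cluster 1, with 8 CpGs at positions -69 to 366 from the start, had 1.48% ± 2.05 (SD, n = 21) for WT against 1.28% ± 1.11 (SD, n = 23) in mD3AKO (log2 odds ratio 0.15, SE 0.63, edgeR adjusted p = 0.999). WT samples lay between 0 and 7.05% and mD3AKO samples between 0.051 and 3.73%. The log2 odds ratio has the opposite sign to the difference of the means, and it turned to -0.20 in the quasi-binomial model. The same 8 CpGs make up the Pax3 promoter. Cluster 3, the island of intron 4 with 15 CpGs, was as low, with 1.12% ± 1.10 (SD, n = 21) and 1.22% ± 0.89 (SD, n = 23) (edgeR adjusted p = 0.988).

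Clusters 2 and 4 of Pax3 had intermediate levels. Cluster 2, at the end of exon 3 and the start of intron 3, had 10.6% ± 5.49 (SD, n = 21) for WT against 8.78% ± 4.85 (SD, n = 23) in mD3AKO (edgeR adjusted p = 0.897). Cluster 4, with 2 CpGs of intron 4, had 18.7% ± 15.5 (SD, n = 21) and 16.6% ± 10.1 (SD, n = 23) (edgeR adjusted p = 0.947), with samples at 0% in both genotypes. Its log2 odds ratio, 0.36 with an SE of 0.55, has the opposite sign to the difference of the means.

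Pax3 cluster 5, with 5 CpGs of intron 4 outside any island, was the most methylated of the 15 clusters and had the lowest p of the Pax3 clusters, with a higher mean in mD3AKO. WT samples ranged from 33.3 to 69.9% with a median of 54.3%, and mD3AKO samples from 49.3 to 75.7% with a median of 59.4%. Of the 23 mD3AKO samples 3 were below the WT mean. The means were 53.6% ± 8.81 (SD, n = 21) and 60.0% ± 6.26 (SD, n = 23), a log2 odds ratio of 0.38 with an SE of 0.17 (edgeR p = 0.0307, adjusted p = 0.44). All 5 CpGs had a higher mean in mD3AKO. By time, the genotypes had 62.2% ± 7.01 (SD, n = 5) for WT against 61.6% ± 8.36 (SD, n = 5) in mD3AKO at rest, and 51.2% ± 4.66 (SD, n = 6) and 61.8% ± 3.98 (SD, n = 6) at 60 min. At 60 min the groups did not overlap, and the genotype contrast did not pass (log2 odds ratio 0.63, edgeR adjusted p = 0.968, with 0.00784% of all clusters called). The share of all clusters without overlap at 60 min was not counted.

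**Figure D4:**
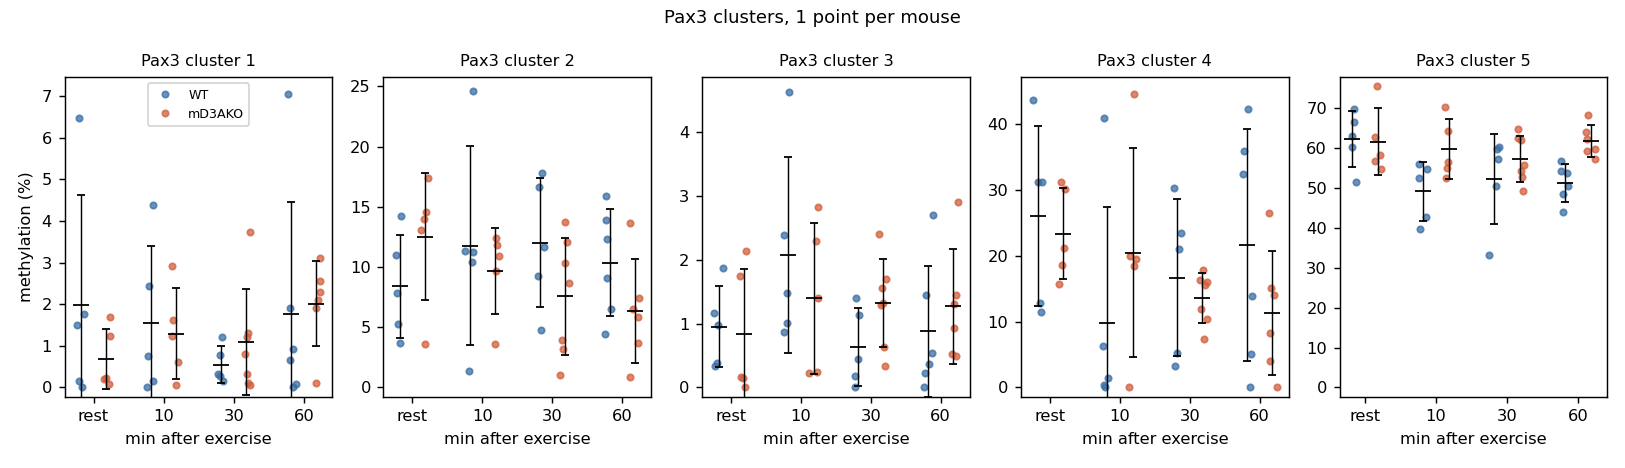
Methylation level (%) of the 5 Pax3 clusters in each mouse at rest and 10, 30 and 60 min after exercise, WT and mD3AKO side by side; horizontal marks and bars are the mean and 1 SD of the group. The genotypes overlap at every time except in cluster 5 at 60 min, where WT lies between 43.9 and 56.8% and mD3AKO between 57.2 and 68.3%. The share of all clusters without such an overlap was not counted. Clusters 1 and 3 reach at most 7.05% in any sample, and cluster 5 lies between 33.3 and 75.7%.

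Time after exercise was tested jointly for 10, 30 and 60 min against rest. None of the 15 clusters passed for time or for the interaction of genotype with time, and neither did any of the 51038 clusters (edgeR quasi-likelihood test, 0% called for each, with 1460 and 1399 clusters at an unadjusted p under 0.05). The likelihood ratio test and the quasi-binomial model called none of the 15 either. The lowest unadjusted p among the 15 was 0.161 for time, at Pax7 cluster 10, and 0.137 for the interaction, at Pax7 cluster 5. Sex was called at none of the 51038 clusters (0%), with 2230 at an unadjusted p under 0.05. The lowest p of sex among the 15 was 0.0218, at Pax7 cluster 8, where females had 42.6% and males 30.4% (adjusted p = 1.0).

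The group values of Pax7 cluster 5 show the spread behind these tests. In resting WT mice the 5 samples were at 1.94, 2.99, 7.22, 8.54 and 13.9%, and in resting mD3AKO mice at 0.12, 0.15, 0.52, 0.59 and 1.44%. The genotypes did not overlap at rest, 10 min or 60 min, and overlapped at 30 min. How many of all clusters had groups without overlap at these times was not counted. The WT means were 6.92% ± 4.79 (SD, n = 5) at rest, then 5.63% ± 2.74 (SD, n = 5) 10 min, 6.46% ± 2.84 (SD, n = 5) 30 min and 12.8% ± 4.77 (SD, n = 6) 60 min after running. The mD3AKO means were 0.56% ± 0.53 (SD, n = 5), 1.85% ± 0.60 (SD, n = 5), 1.70% ± 1.75 (SD, n = 7) and 1.24% ± 1.02 (SD, n = 6). WT at 60 min against rest had a log2 odds ratio of 1.18 (edgeR unadjusted p = 0.121, adjusted p = 1.0). Within single times the log2 odds ratio of genotype was -3.76 in resting mice and -1.60, -2.53 and -3.83 after 10, 30 and 60 min, with edgeR adjusted p of 0.204, 0.966, 0.497 and 0.0554. Of all clusters, 0.00588, 0.0137, 0.0176 and 0.00784% were called at these times.

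In Pax3 cluster 5 the WT means after exercise were 49.1% ± 7.43 (SD, n = 5) at 10 min and 52.3% ± 11.3 (SD, n = 5) at 30 min, below the value at rest. At 10 min the log2 odds ratio against rest was -0.78 (edgeR unadjusted p = 0.033, adjusted p = 1.0). The mD3AKO means stayed between 57.4 and 61.8%. Whether this differs between the genotypes gave an unadjusted p of 0.484 for the interaction.

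Samples numbered 1 to 25 were taken at rest or 60 min and those numbered 26 to 50 at 10 or 30 min, so number and time cannot be told apart, but each set holds both genotypes. In the first set Pax7 cluster 5 had 10.2% in WT and 0.93% in mD3AKO (log2 odds ratio -3.79, edgeR adjusted p = 0.0128), and in the second 6.05 and 1.76% (log2 odds ratio -2.07, adjusted p = 0.146). Clusters 1, 6 and 10 kept their direction in both sets with log2 odds ratios of -0.91 and -0.80, -1.98 and -1.61, and -2.05 and -2.04, and passed in neither set alone, with adjusted p of 0.282 to 0.527. The Pax7 body passed in both sets (edgeR adjusted p = 0.00358 and 0.00775).

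Within each genotype, levels of clusters 1, 5, 6 and 10 were correlated with each other and with the mean level of the clusters used to check the labels, a set that differed slightly from sample to sample, 20 relations in all over 21 WT or 23 mD3AKO samples, and none had an adjusted p under 0.05 (two-sided permutation tests). The relation with the lowest p was that of cluster 1 with this mean in WT, with Pearson r = 0.567 (permutation p = 0.00795, adjusted p = 0.159) and Spearman rho = 0.623 (permutation p = 0.00327, adjusted p = 0.0654). It was 0.491 without the 2 samples farthest from the median, and 0.654 and 0.489 within the first and second set of numbers. Clusters 5 and 6, both in intron 4, had r = 0.405 in WT (permutation p = 0.069, adjusted p = 0.34) and 0.233 in mD3AKO (permutation p = 0.283, adjusted p = 0.575).

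No cluster in the surroundings of the genes was called. At the 1.09% of all clusters called, sets this small would often hold none. Within 250 kb of the Pax7 CpGs the 23 other clusters had a median difference of -0.61 percentage points and a lowest adjusted p of 0.227, and the 16 around Pax3 had a median of -0.31 and a lowest adjusted p of 0.728 (edgeR). The median over all clusters was -0.46 percentage points.

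Other genes of the same pathways were read from lists. The rest of the Pax family had 1 of 49 clusters called, in 6 covered genes. It lay in the body of Pax5, a B cell factor, and fell from 40.3% ± 8.02 (SD, n = 21) to 29.4% ± 6.88 (SD, n = 23) (edgeR adjusted p = 0.0448). Of 80 clusters in 21 genes of transcription factors and cofactors that work with Pax proteins or mark muscle progenitors, 1 was called. This was a promoter cluster of Gli2, a Hedgehog effector, which fell from 2.54% ± 1.98 (SD, n = 21) to 0.89% ± 0.57 (SD, n = 23) (edgeR adjusted p = 0.0398). None of 12 clusters of 5 genes known as direct targets of Pax3 or Pax7 was called. The lowest p was that of Met, the HGF receptor, with 68.0% ± 3.47 (SD, n = 21) and 64.2% ± 3.51 (SD, n = 23) (edgeR adjusted p = 0.621). The single cluster of Myod1, with 17 promoter CpGs, had 5.55% ± 2.19 (SD, n = 21) and 5.50% ± 2.95 (SD, n = 23).

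A further list of satellite cell genes held genes of the surface and niche and also transcription factors such as Barx2. Among its 18 covered genes, 7 of 51 clusters were called, all lower in mD3AKO and in 5 genes. The median over the 51 was -2.03 percentage points. Notch1, the receptor that keeps satellite cells quiescent, fell from 7.04% ± 6.80 (SD, n = 21) to 0.91% ± 2.02 (SD, n = 23) at 1 CpG of its body (edgeR adjusted p = 0.000764). The body CpG of Sox8 fell from 78.6% ± 8.14 (SD, n = 21) to 60.4% ± 10.8 (SD, n = 23) (edgeR adjusted p = 0.000818). Barx2, a homeobox factor of satellite cells, fell from 20.2% ± 7.45 (SD, n = 21) to 11.2% ± 5.59 (SD, n = 23). The FGF receptor Fgfr1 had 3 of 6 clusters called, the strongest at 76.7% ± 9.74 (SD, n = 21) and 61.0% ± 13.4 (SD, n = 23). Spry1, an inhibitor of FGF signalling, fell from 33.9% ± 17.1 (SD, n = 21) to 13.9% ± 9.32 (SD, n = 23), with adjusted p of 0.0122, 0.0141 and 0.0314 for these 3 genes in edgeR. These lists were drawn up with earlier results of the data known, and their counts stand beside the 1.09% of all clusters.

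Among 15329 clusters with at least 3 CpGs that belong to other genes, the levels most like Pax7 cluster 5 over the 44 samples were those of Nav2 (r = 0.756), Ankrd34a and Lix1l (0.731), Arhgef2 (0.711), Farsb (0.71) and Comtd1 (0.708). After the mean of each of the 8 groups was subtracted, r was 0.338, 0.0249, 0.257, 0.336 and 0.177. For Pax3 cluster 5 they were Stk32a (r = 0.645), Sfxn2 (0.547), the pair 1700123L14Rik and Fam19a1 (0.541), Igsf11 (0.532) and Notch4 (0.52), and within groups r was 0.609, 0.566, 0.582, 0.457 and 0.436. All points share the same libraries, and these values are descriptions of the highest among many.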

How the data were processed

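RRBS counts of 44 of 50 samples were analysed. The other 6 were not used here. The authors trimmed 75-base single-end reads with Trim Galore 0.4.0 and cutadapt 1.9.1, aligned them to mm10 with Bismark 0.18.1, added both strands of a CpG and left out CpGs that any sample covered with fewer than 8 reads. The deposited table holds, per CpG and sample, the counts of methylated and of unmethylated calls, with no normalization. No removal of PCR copies is given in the sources used here. The authors' promoter, gene body and cluster assignments were used as deposited. Positions are of GRCm38 (mm10), with exons from GENCODE M21 and positions counted from the start of the longest transcript.

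Counts were summed per feature and fitted in edgeR 4.0.16 over all 51038 clusters, 205304 CpGs, 9761 promoters or 12391 gene bodies, with a coefficient per sample and a methylated fraction for each of the 8 groups. The quasi-likelihood test used 1 common dispersion (0.437 for clusters) and Benjamini-Hochberg adjustment at 0.05. The genotype effect is the mean over the 4 times. Alternatives were the likelihood ratio test, a quasi-binomial model (pseudocount 0.5), limma 3.58.1 (pseudocount 1), a coverage minimum of 20, gaps of 50 and 200 bp, each set of sample numbers, a sex term and leaving out each sample. In simulated clusters with a log2 odds ratio of 2, the quasi-likelihood test recovered 92%, and 43% with a ratio of 1. Only clusters of intermediate level were changed in the simulation. Recovery in clusters of low level, such as Pax7 clusters 5 and 6 and those at the start of both genes, was not tested. The simulation adjusted over a subset of the clusters, with a larger changed share than was called in the data. Recovery in the data may therefore be lower. Correlations and the comparison of gene bodies used 100000 permutations. Clusters were described in full where called, nearest the start or lowest in p per gene. The members and lists were chosen with earlier results of these data known. The chi-square per CpG between samples of 1 group ran from 7.66 to 19.7 over 101 pairs. Pairs of samples from different groups were not compared. The comparison of the gene bodies was added after the data were seen. The promoter level of 1 cell type marker is not reported here.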

Additional observations from a re-analysis of the deposited data

Results flagged for a closer look

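In 14 of 120 sets of samples (15 clusters in 8 groups), the highest sample stood apart from the rest of its group by Dixon's criterion. For normally distributed values chance gives about 1 in 20, or 6. These levels are bounded at 0 and many lie near it, so 14 cannot be set strictly against 6. None of the 14 was in the called Pax7 clusters 1, 5, 6 and 10. In Pax7 cluster 2, mD3AKO rest replicate 8 was at 5.68%. In Pax7 cluster 3, WT 60 min replicate 4 was at 32.9%, with the next sample at 12.3%. In Pax7 cluster 4, a single CpG, WT 60 min replicate 9 was at 45.8% and mD3AKO 30 min replicate 36 at 5.56%. In Pax7 cluster 7, whose levels are near 0, the values were 2.58% in mD3AKO rest replicate 12, 3.44% in mD3AKO 60 min replicate 19, 1.58% in mD3AKO 10 min replicate 34, 2.12% in WT 10 min replicate 30 and 3.30% in WT 30 min replicate 44. In Pax7 cluster 9, mD3AKO rest replicate 12 was at 57.4%, with the next sample at 20.2%. In Pax3 cluster 1, WT rest replicate 1 was at 6.47%, WT 60 min replicate 22 at 7.05% and mD3AKO 30 min replicate 27 at 3.73%. In Pax3 cluster 4, WT 10 min replicate 30 was at 40.9%, with the next sample at 6.29%.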

How the results depend on the processing

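Under the settings other than leaving out a sample, 99 values kept their direction and their side of the threshold or stayed near their size, and 12 lost the threshold. A cluster that splits with gaps of 50 bp is represented among these values by 1 of its pieces. The number of Pax7 clusters called stayed at 4 with the likelihood ratio test, the quasi-binomial model, limma and a sex term. With gaps of 200 bp, which merge clusters, it was 4 of 7. It was 1 with a coverage of at least 20, 1 in samples numbered 1 to 25, 0 in samples numbered 26 to 50 and 2 of 16 with gaps of 50 bp, settings that leave fewer CpGs or fewer samples. Pax7 cluster 10 has no CpG with 20 reads in every sample and gave no value there. The effect at Pax7 cluster 5 was -2.07 in samples numbered 26 to 50, and past the threshold in every other setting. The Pax7 promoter passed with the likelihood ratio test (-0.82), the quasi-binomial model (-0.80) and limma (-0.82). The Pax7 CpGs called were 11 in the quasi-likelihood test, 5 in the quasi-binomial model and 17 in limma. The cause was not tested. Effects near 0 changed sign: Pax7 cluster 2 was 0.0050 in samples numbered 1 to 25, Pax3 cluster 1 was -0.20 in the quasi-binomial model and -0.12 with a coverage of at least 20, and the Pax3 promoter was -0.20 and -0.012.

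Each sample was left out in turn in the quasi-binomial model. The number of Pax7 clusters called was 4 to 5 and that of Pax3 clusters 0 to 1. Pax3 cluster 5 had an adjusted p of 0.0556 with all samples, which fell to between 0.0365 and 0.0499 without mD3AKO rest replicate 2 or 21, WT rest replicate 11 or 20, mD3AKO 30 min replicate 27, WT 30 min replicate 31 or 37, mD3AKO 10 min replicate 34 or WT 10 min replicate 47. Pax3 cluster 1 and the Pax3 promoter ranged from -0.36 to 0.023, above 0 without WT 60 min replicate 22 (0.023) or WT 10 min replicate 49 (0.0080). The effect at Pax7 cluster 5 ranged from -3.05 to -2.75. No mouse could be compared with itself between groups, because each had 1 genotype and was taken at 1 time. The coverage of single CpGs went down to 8 calls per sample, and what size of difference could be detected there was not tested.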
